A study of Homo sapiens with 6 samples.

Results

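Genes of autonomic signalling were followed in heart muscle cells grown from stem cells: the adrenergic receptors ADRB1, ADRA1A and ADRA1B, the muscarinic receptor CHRM2, the receptor kinases GRK5 and GRK6, and the arrestins ARRB1 and ARRB2. These 8 were chosen by symbol for their function, and all 8 were found among the 35793 genes listed. The cells were cardiomyocytes derived from WTC11, an established line of human induced pluripotent stem cells, and were taken on day 15 of differentiation without further treatment. The wild-type group was unedited WTC11, and the STK25KO group came from a WTC11 derivative with a homozygous CRISPR/Cas9 knockout of STK25, a serine/threonine kinase. Each genotype had 3 biological replicates and the knockout was represented by 1 edited line, so the edit and other differences between the lines cannot be told apart. Values are normalized counts, that is reads per gene divided by 1 factor per library. The read numbers given were recovered from these values and may be estimated counts rounded to whole numbers, since a tool that estimates counts is named in the processing notes.

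Noradrenaline and adrenaline act on the heart through adrenergic receptors. Beta receptors couple to the stimulatory G protein and raise cAMP, and alpha-1 receptors couple to Gq and phospholipase C. Acetylcholine from the vagus nerve acts mainly on the M2 muscarinic receptor, which couples to inhibitory G proteins, lowers cAMP and opens G protein-gated potassium channels. G protein-coupled receptor kinases phosphorylate occupied receptors, and arrestins then bind them, end G protein coupling and lead them into the cell.

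Of the 8 genes, 6 averaged 10 or more normalized counts over the 6 libraries and were tested; ADRB1 and ADRA1A were below that. None of the 6 passed the threshold (limma on log2(value + 1), Benjamini-Hochberg adjusted p under 0.05 over all genes tested), against 12.8% of all 15536 tested genes (6.79% lower and 5.97% higher in the knockout). The count was 0 with edgeR on the recovered reads as well, while DESeq2 called 2, which were ADRA1B and GRK5, both lower. Among all 15536 tested genes edgeR called 1864, and DESeq2 called 3210, of which 1656 were lower. The limma count at an unadjusted p under 0.05 was also 2, of 4275 among all genes. In 3 of the 6 the libraries of the genotypes did not overlap, against 33.4% of all tested genes. ADRA1B and GRK5 were lower in all 3 knockout libraries and CHRM2 was slightly higher. The median log2 fold change of the 6 was -0.034, against 0.0052 for all tested genes, and ADRA1B entered the test only through its wild-type level.

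The sequences before the start sites of ADRB1, ADRA1B, CHRM2 and GRK5 are shown because these genes mark the contrasts below: a receptor with almost no reads, both genes that were lowest in the knockout relative to the wild type, and the abundant M2 receptor. They are RefSeq sequences on GRCh38.p14, 5′ to 3′ on the plus strand, on which all 4 genes lie, and they end before the annotated exons. Promoter windows were found for 6 of the 8 genes, and those of GRK6 and ARRB2 are not shown because they run into exons. The RefSeq start of ADRA1B lies inside the GENCODE gene span given below, and CHRM2 has 3 windows, of which the first is shown. Capitals mark the GC box GGGCGG and the cAMP response element half-site TGACG, each searched on both strands. Neighbouring GC boxes of ADRA1B overlap and appear there as 1 run of capitals.
ADRB1 (chr10:114043616-114043865): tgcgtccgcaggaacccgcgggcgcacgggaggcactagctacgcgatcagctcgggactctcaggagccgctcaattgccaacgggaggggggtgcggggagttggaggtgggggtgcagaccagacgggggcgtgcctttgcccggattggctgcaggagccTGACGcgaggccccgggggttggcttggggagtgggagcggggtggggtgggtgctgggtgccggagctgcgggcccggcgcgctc
ADRA1B (chr5:159916232-159916473): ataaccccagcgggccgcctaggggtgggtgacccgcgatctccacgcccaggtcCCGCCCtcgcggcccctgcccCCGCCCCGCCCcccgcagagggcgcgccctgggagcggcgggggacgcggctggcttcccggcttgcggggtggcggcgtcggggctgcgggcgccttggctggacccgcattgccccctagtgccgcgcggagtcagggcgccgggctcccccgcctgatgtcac
CHRM2 (chr7:136868402-136868651): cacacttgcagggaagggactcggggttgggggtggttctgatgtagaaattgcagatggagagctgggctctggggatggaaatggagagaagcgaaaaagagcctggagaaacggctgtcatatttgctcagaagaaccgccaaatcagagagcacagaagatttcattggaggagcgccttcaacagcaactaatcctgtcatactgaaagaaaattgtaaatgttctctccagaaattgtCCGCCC
GRK5 (chr10:119207321-119207570): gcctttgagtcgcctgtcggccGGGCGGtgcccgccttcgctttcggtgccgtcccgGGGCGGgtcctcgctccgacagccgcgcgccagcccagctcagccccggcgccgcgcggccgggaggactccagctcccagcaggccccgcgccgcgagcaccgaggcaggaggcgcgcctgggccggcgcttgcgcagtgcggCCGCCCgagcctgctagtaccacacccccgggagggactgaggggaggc
The ADRB1 window held 1 half-site and 0 GC boxes. ADRA1B and GRK5 had 3 GC boxes each and CHRM2 had 1, and none of these 3 windows held the half-site. Among 35116 promoter windows of 250 bases, 42.6% held the GC box and 21.2% the half-site, so these matches describe the windows and show no binding. GC content of the 250-base windows was 72.8% for ADRB1, 79.6% for ADRA1B, 78.4% for GRK5 and 48.4% for the first window of CHRM2.

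The libraries held from 22443904 to 53224112 reads assigned to genes. STK25, the targeted gene, had 8119 ± 1168 normalized counts in the wild type and 3720 ± 251 in the knockout (± SD, 3 libraries a genotype; limma log2 fold change -1.12, SE 0.19, adjusted p = 0.00903), and without wild-type replicate 1 its adjusted p was 0.0611. Its exons overlap those of FARP2. TNNT2, cardiac troponin T, had at least 206999 normalized counts in every library. Of 12 cardiomyocyte markers 0 rose and 1 fell with limma, NKX2-5 (-1.71, adjusted p = 0.00135). DESeq2 called 7 of them, counting both directions, against 3210 of all 15536 tested genes. Their summed level was 1427830 to 1783570 against 2066220 to 3739520 in the knockout. Wild-type replicate 2 and knockout replicate 1 stood apart from the other libraries on the second principal component, which carried 24.1% of the variance, so values without both are given for each tested gene of the group. Markers of other cell types also moved. Of the 5 smooth muscle markers all 5 rose, and their summed level was 79383 to 89832 in the wild-type and 491950 to 539638 in the knockout libraries. Of 7 neural markers 4 rose, with sums from 241 to 278 against 1045 to 1266. SOX2 and PAX6 among them entered the test only through their knockout level. Of 5 epicardial markers 2 rose, ALDH1A2 and TCF21, with sums from 103 to 219 against 912 to 1091. ALDH1A2 entered the test only through its knockout level. TCF21 was also among the fibroblast markers that rose, and TBX18 was on both the epicardial and the nodal list. Of 8 fibroblast markers 3 rose and 1 fell, with sums from 12950 to 26529 against 8205 to 16655, and of 6 endothelial markers 0 passed, with sums from 173 to 477 against 418 to 584 and CDH5 at no more than 1 read in any library (edgeR and DESeq2 also 0; 1 marker at an unadjusted limma p under 0.05). Of 5 pluripotency markers 1 rose, with sums from 905 to 979 against 3080 to 4462. The marker that rose, TDGF1, made up most of these sums, at 560 normalized counts on average in the wild type and 3516 in the knockout. POU5F1, LIN28A and DPPA4 did not pass with limma, and NANOG was too low to be tested. Markers of the heart chambers moved too: of 7 atrial markers 1 rose and 3 fell (sums 155180 to 254103 against 26562 to 53346), of 5 ventricular markers 3 fell (sums 132642 to 170214 against 139960 to 240454) and of 6 nodal markers 1 rose and 1 fell (sums 3458 to 4225 against 9203 to 11227). The ventricular sums were mostly MYL3, which did not pass (0.54, limma adjusted p = 0.306), nor did HAND1. The 3 that fell were MYL2, HEY2 and IRX4, with knockout means of 1.19%, 4.33% and 11.8% of the wild-type mean. The part of these cell types and chambers in the values of the receptor genes was not tested. In bulk RNA, fewer cells of a type and less RNA per cell cannot be told apart.

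The genes differed widely in level. Levels of different genes are compared as normalized counts per kilobase of the gene's median coding transcript. In the wild type the order was GRK6 at 570 ± 111 per kb, CHRM2 at 439 ± 79.0, GRK5 at 218 ± 45.0, ARRB2 at 83.1 ± 28.6, ARRB1 at 69.5 ± 24.7 and ADRA1B at 12.8 ± 5.2 (SD, n = 3 each). ADRB1 and ADRA1A were last, at 0.36 and 0.35 per kb. The libraries of GRK6 (442 to 640) and CHRM2 (349 to 496) overlapped, as did those of ARRB2 (59.2 to 115) and ARRB1 (43.1 to 91.9). CHRM2 was above GRK5 (168 to 254) in every wild-type library, but with each gene's longest coding transcript the order turned, to 170 per kb for CHRM2 and 218 for GRK5. In the knockout GRK6 was at 659 ± 207, CHRM2 at 518 ± 23.6, GRK5 at 113 ± 35.5, ARRB2 at 93.7 ± 22.7, ARRB1 at 56.6 ± 10.2 and ADRA1B at 1.49 ± 1.38 per kb (SD, n = 3 each). There the libraries of GRK5 (73.3 to 140) overlapped those of ARRB2 (74.4 to 119), which they did not in the wild type.

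**Figure D1:**
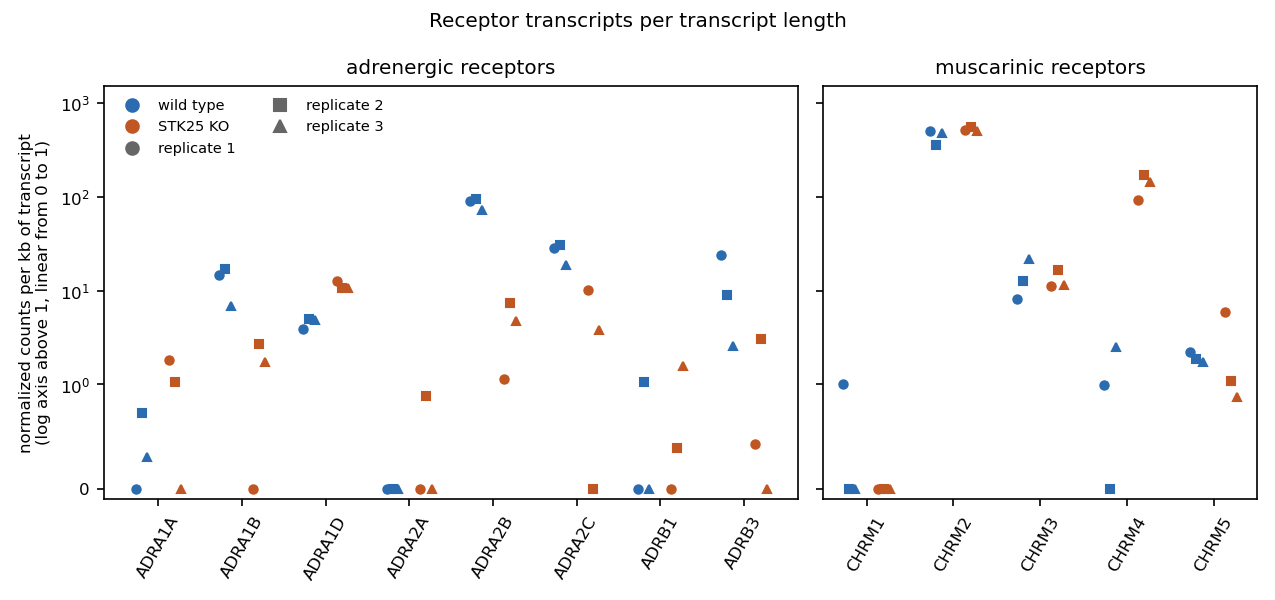
Normalized counts per kilobase of transcript for 8 adrenergic and 5 muscarinic receptor genes in each library (blue, wild type; orange, STK25 knockout; marker shapes are replicates; the axis is logarithmic above 1 and linear from 0 to 1). CHRM2 sits between 349 and 545 in all 6 libraries, while ADRB1 and ADRA1A stay below 2.

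ADRB1 encodes the beta-1 receptor, the main beta receptor of adult heart muscle (chromosome 10, 114044056 to 114046908; positions of genes are from GENCODE 29 on GRCh38). It had 0, 4 and 0 reads in wild-type replicates 1, 2 and 3 and 0, 1 and 5 reads in knockout replicates 1, 2 and 3. That is 4 reads in all wild-type libraries together and 6 in all knockout libraries, with 0 in a library of each genotype. Of the 6 libraries 4 were at or under 3 reads, a level that corresponds to 1.91 to 4.53 normalized counts depending on the library. A difference between genotypes was not detectable at this depth.

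ADRA1A, the alpha-1A receptor (chromosome 8, 26748150 to 26867273), was at or under 3 reads in every library. It had 0, 2 and 1 reads in the wild type and 3, 2 and 0 in the knockout. No fold is given, since both genotypes were at or under the floor of 3 reads per library.

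ADRA1B, the alpha-1B receptor (chromosome 5, 159865080 to 159972544), was the alpha-1 receptor among the 8 genes with clear reads in the wild type. Its normalized counts were 30.2, 34.3 and 14.0 in wild-type replicates 1, 2 and 3, from 20, 45 and 22 reads. In the knockout they were 0, 5.57 and 3.55, from 0, 5 and 4 reads. Every knockout library lay below every wild-type library, and the knockout values were near the level of 3 reads. The log2 fold change was -3.04 (SE 0.93, 95% interval -5.18 to -0.89, limma adjusted p = 0.0730), which did not pass the threshold. DESeq2 put it past the threshold (log2 fold change -3.08, adjusted p = 0.0262), edgeR did not (-3.03, adjusted p = 0.0885). Without wild-type replicate 2 and knockout replicate 1 the limma value was -1.99 (adjusted p = 0.124), and with pseudocounts of 10 and 0.1 it was -1.45 and -4.26 (adjusted p = 0.0513 and 0.145). The intervals given here and below are not adjusted for the number of genes, and the exact two-sided permutation test over the libraries gave p = 0.1, the smallest that 3 against 3 allows.

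CHRM2, the M2 muscarinic receptor (chromosome 7, 136868669 to 137020255), was the most abundant receptor among the 8 genes. It had 1137, 801 and 1084 normalized counts in wild-type replicates 1, 2 and 3 and 1166, 1249 and 1148 in knockout replicates 1, 2 and 3. The knockout libraries lay above all wild-type libraries, but the gap was narrow, from 1137 in the highest wild-type to 1148 in the lowest knockout library. The log2 fold change was 0.25 (SE 0.21, 95% interval -0.24 to 0.74, limma adjusted p = 0.498), within the spread between replicates. It was 0.096 without wild-type replicate 2, the lowest library, and 0.11 without that library and knockout replicate 1. With all libraries scaled to equal totals, which moved the median over all tested genes to -0.27, the log2 fold change of CHRM2 was -0.028.

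**Figure D2:**
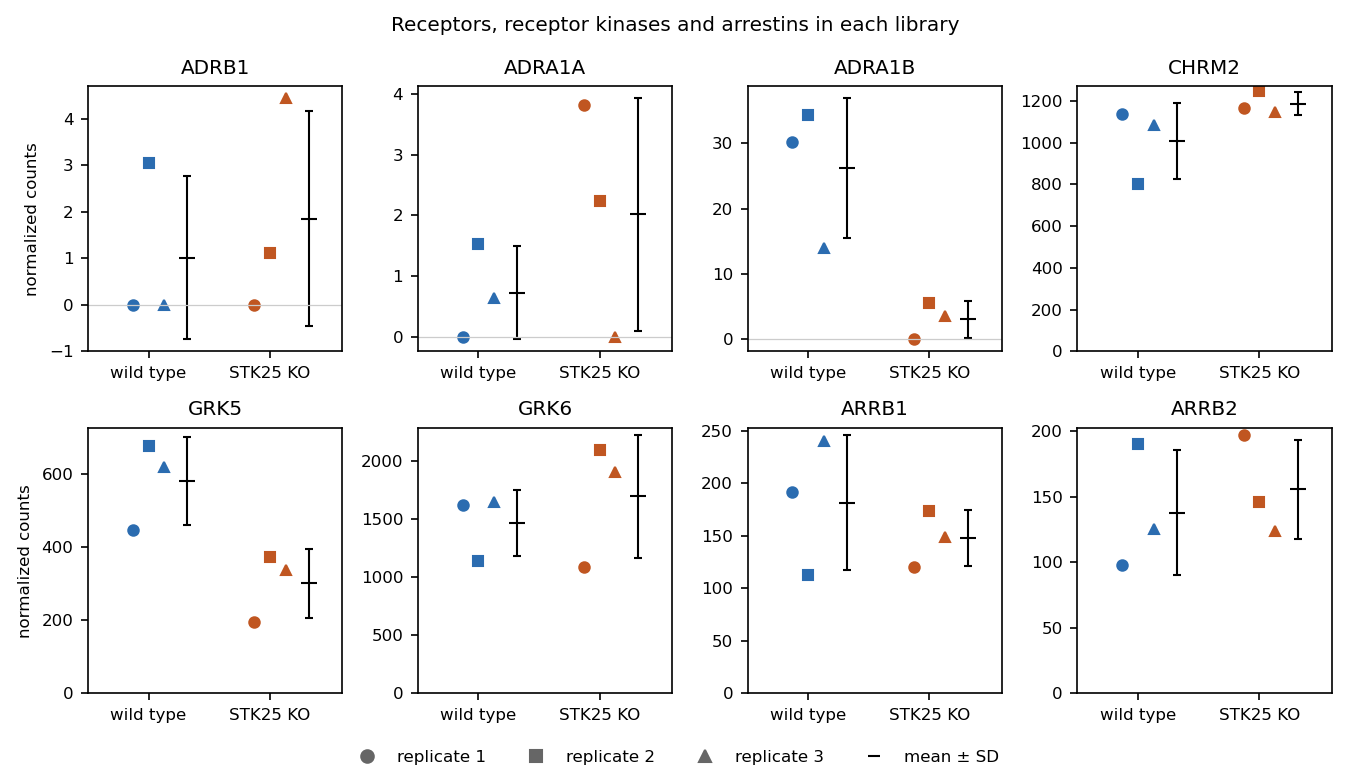
Normalized counts of the 8 genes in each library (points; shapes are replicates) with the mean and SD of each genotype (black), each panel with its own linear axis; the SD bars of ADRB1 and ADRA1A reach below 0. GRK5 and ADRA1B are lower in all 3 knockout libraries, and GRK6, ARRB1 and ARRB2 overlap between genotypes.

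GRK5 is a receptor kinase anchored at the plasma membrane that is abundant in heart (chromosome 10, 119207589 to 119459742). Its normalized counts were 446, 675 and 618 in wild-type replicates 1, 2 and 3 and 194, 372 and 337 in knockout replicates 1, 2 and 3. The highest knockout library was below the lowest wild-type library, and the knockout mean was 52.0% of the wild-type mean. The log2 fold change was -0.97 (SE 0.32, 95% interval -1.73 to -0.22), and its adjusted p was 0.0936 with limma, 0.0970 with edgeR and 0.0344 with DESeq2. Without wild-type replicate 2 and knockout replicate 1, the highest and the lowest library, the limma value was -0.57 (adjusted p = 0.110).

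GRK6, a kinase of the same subfamily (chromosome 5, 177403204 to 177442901), did not separate the genotypes. It had 1618, 1136 and 1646 normalized counts in wild-type replicates 1, 2 and 3 and 1092, 2092 and 1903 in knockout replicates 1, 2 and 3. The library that stood apart in each genotype was the lowest of its group, and the others were 1618 to 2092. The log2 fold change was 0.17 (SE 0.30, 95% interval -0.51 to 0.86, limma adjusted p = 0.765). It was 0.46 without knockout replicate 1, 0.29 without both libraries that stood apart, -0.0049 without knockout replicate 2 and -0.11 with equal totals, none of them past the threshold. Exons of GRK6 overlap those of F12 and PRR7-AS1 on the other strand, and the sources used here do not say whether counting used strand, so reads of these genes cannot be told apart with certainty.

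The arrestins varied in opposite ways in the library of each genotype that stood apart, and in the same way between the others. ARRB1, beta-arrestin 1 (chromosome 11, 75264182 to 75351705), had 192, 113 and 240 normalized counts in wild-type replicates 1, 2 and 3 and 121, 174 and 149 in knockout replicates 1, 2 and 3. ARRB2, beta-arrestin 2 (chromosome 17, 4710489 to 4721499), had 98.2, 190 and 125 in the wild type and 197, 146 and 124 in the knockout, in the same order. In both genotypes the library that stood apart had the lowest ARRB1 and the highest ARRB2 of its group. Neither gene separated the genotypes. The log2 fold change of ARRB1 was -0.24 (SE 0.37, 95% interval -1.10 to 0.61, limma adjusted p = 0.735), and it ran from -0.55 without wild-type replicate 2 to -0.0070 without wild-type replicate 3, with -0.41 without both libraries that stood apart. That of ARRB2 was 0.20 (SE 0.37, 95% interval -0.65 to 1.05, limma adjusted p = 0.786), and it was 0.46 when wild-type replicate 2 was left out, -0.016 when wild-type replicate 1 was, 0.28 without both libraries that stood apart and -0.080 with equal totals. Exons of ARRB1 overlap those of AP001972.2 on the other strand.

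**Figure D3:**
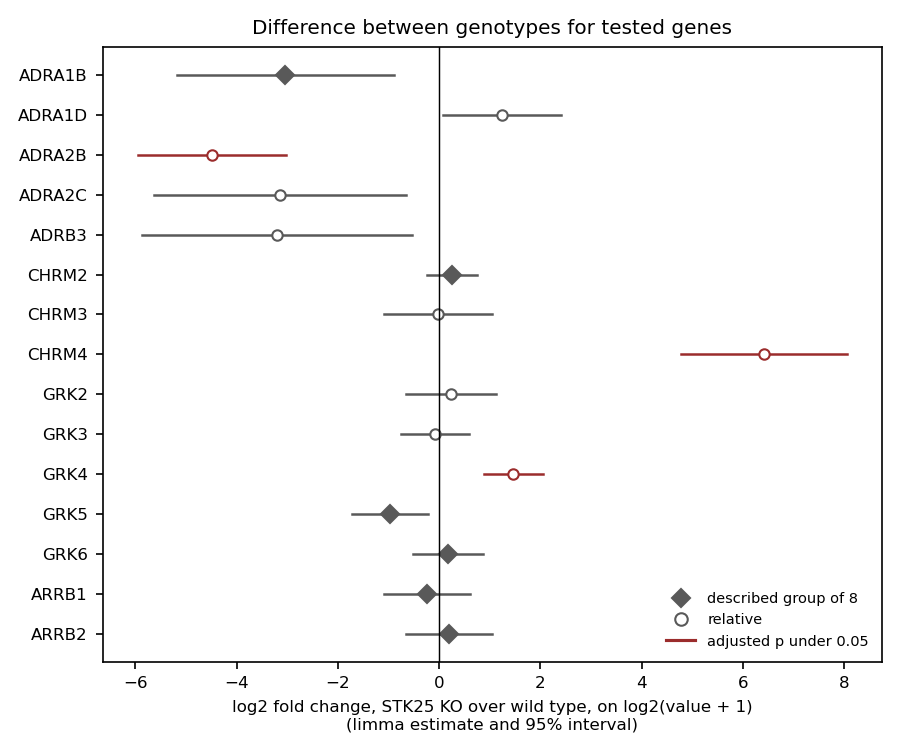
Log2 fold change of the knockout over the wild type for tested receptor, receptor kinase and beta-arrestin genes, with its 95% limma interval (filled diamonds, the 6 tested genes of the group of 8; open circles, their relatives; red, adjusted p under 0.05). The intervals of ADRA1B and GRK5 lie below 0 without passing the adjusted threshold, and CHRM4 at 6.42 and ADRA2B at -4.48 lie farthest out.

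Ratios between genes of the same library were compared for 6 pairs, as log2((a + 1)/(b + 1)) of the normalized counts, with exact two-sided permutation tests over the libraries. The ratio of GRK5 to GRK6 was 0.275, 0.594 and 0.376 in wild-type replicates 1, 2 and 3 and 0.178, 0.178 and 0.177 in the knockout libraries. On the log2 scale it was lower in the knockout by 1.15 (-1.34 ± 0.56 against -2.49 ± 0.0058, SD, n = 3 each; exact p = 0.1, adjusted over the 6 ratios 0.2). The ratio was thus nearly the same in the 3 knockout libraries, although GRK5 itself ranged from 194 to 372 normalized counts there. GRK5 was also lower relative to GRK2, the other main receptor kinase of heart, in every knockout library, from 0.138 to 0.172 against 0.253 to 0.635 in the wild type (log2 difference -1.20, exact p = 0.1, adjusted 0.2). The ratio of ARRB1 to ARRB2 was 1.95, 0.592 and 1.92 in the wild type and 0.613, 1.19 and 1.21 in the knockout, with overlapping genotypes (log2 difference -0.44, exact p = 0.6, adjusted 0.72). Without both libraries that stood apart the log2 differences were -0.86 for GRK5 to GRK6, -0.87 for GRK5 to GRK2 and -0.69 for ARRB1 to ARRB2.

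**Figure D4:**
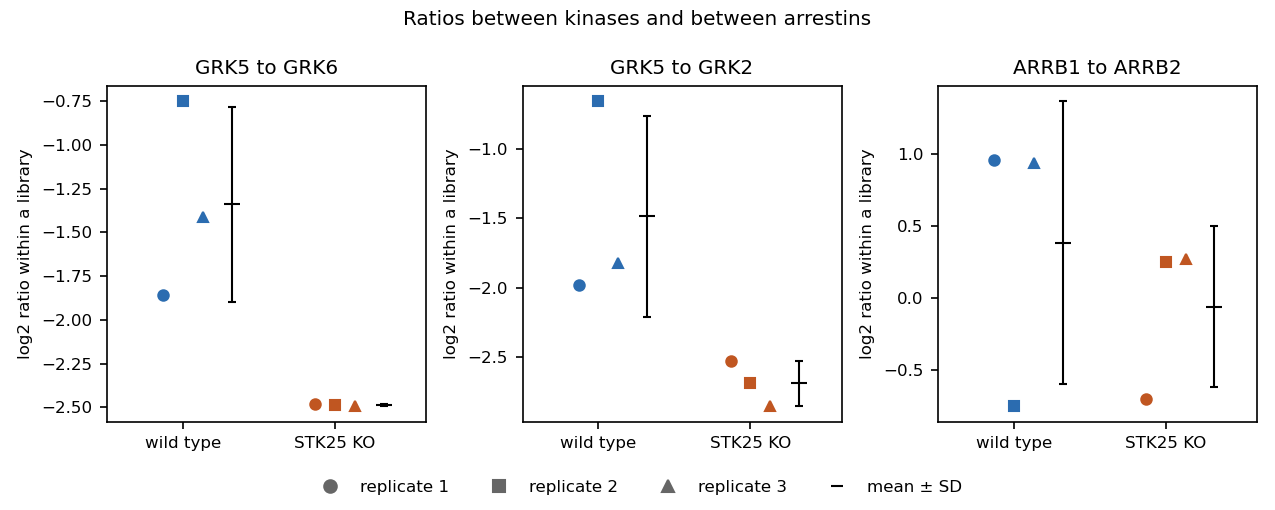
Log2 ratios within each library of GRK5 to GRK6, GRK5 to GRK2 and ARRB1 to ARRB2 (points; shapes are replicates) with the mean and SD of each genotype (black). The 3 knockout libraries coincide at -2.49 to -2.48 for GRK5 to GRK6, below all wild-type libraries, and the arrestin ratios overlap.

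The log2 ratio of ADRB1 to CHRM2 differed by 0.25 (exact p = 1.0), with ADRB1 at 0 in 3 libraries, and its sign changed with a pseudocount of 10. The pairs not described involve genes at or near the floor of 3 reads.

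Some other adrenergic and muscarinic receptors had more reads than ADRB1 and ADRA1A. ADRA2B, an alpha-2 receptor that couples to inhibitory G proteins, had 299, 315 and 245 normalized counts in the wild type and 3.81, 24.5 and 16.0 in the knockout (limma log2 fold change -4.48, SE 0.63, adjusted p = 0.00412). ADRA2C (-3.14, limma adjusted p = 0.101), ADRB3 (-3.19, limma adjusted p = 0.116) and ADRA1D (1.24, limma adjusted p = 0.157) did not pass, and ADRA2A had reads in 1 library only. ADRA2C did pass with a pseudocount of 10 (-1.75, limma adjusted p = 0.0429), without knockout replicate 1 (-4.08, 0.0326) and without both libraries that stood apart (-3.95, 0.0193). ADRA1D passed where limma was run without a trend (adjusted p = 0.0176).

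Among the muscarinic receptors outside the group 2 were tested, and 1 of them rose. CHRM4, the M4 receptor, which couples to inhibitory G proteins like M2, went from 1.51, 0 and 3.83 normalized counts in wild-type replicates 1, 2 and 3 to 137, 253 and 214 in the knockout (limma log2 fold change 6.42, SE 0.71, adjusted p = 0.00156). The wild-type values rest on 7 reads in all, and CHRM4 entered the test only through its knockout level. The log2 fold change was 4.14 and 7.83 with pseudocounts of 10 and 0.1, past the limma threshold with both. CHRM3 did not pass (-0.016, limma adjusted p = 0.989), and CHRM1 and CHRM5 were too low to be tested. Per kilobase, CHRM2 made up 94.8% to 97.5% of the muscarinic receptor transcripts of wild-type and 74.6% to 82.5% of knockout libraries, with no overlap. With the longest coding transcript of each gene the shares were 91.2% to 95.6% and 54.1% to 65.8%.

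Of the 4 tested kinases and arrestins outside the group, 1 rose. GRK4, a receptor kinase of the GRK5 and GRK6 subfamily, had 307, 441 and 332 normalized counts in wild-type replicates 1, 2 and 3 and 1183, 841 and 963 in the knockout (limma log2 fold change 1.47, SE 0.25, adjusted p = 0.00911), while the log2 fold change of GRK5 was -0.97. Without wild-type replicate 1 it did not pass (limma adjusted p = 0.0522), nor with the replicate number as a block (0.0593). GRK2 (0.23, limma adjusted p = 0.758) and GRK3 (-0.089, limma adjusted p = 0.886) did not pass. GRK2 had 1761, 1063 and 2185 normalized counts in the wild type and 1127, 2400 and 2443 in the knockout, with the same 2 libraries lowest as for GRK6.

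Downstream and upstream of the receptors, 20 of 106 tested genes on 11 lists passed, 10 higher and 10 lower, including those just named. The share of all tested genes that passed was 12.8%, and the counts of single lists below stand beside the same share. Among 11 G protein alpha subunits 2 rose, GNAL (1.41, limma adjusted p = 0.0197) and GNAO1 (1.84, limma adjusted p = 0.0292), and GNAS, which encodes the stimulatory subunit, was not past the threshold (0.030, limma adjusted p = 0.949). Of 14 beta and gamma subunits GNG2 rose (2.52) and GNG11 (-2.46) and GNG7 (-1.98) fell (limma adjusted p = 0.0143, 0.00911 and 0.0241). RGS proteins shorten G protein signals, and 17 genes of their list were tested, among them RGS9BP, which does not itself encode an RGS protein. The level of RGS4 rose, 199 ± 28.8 normalized counts against 1183 ± 162 (± SD, 3 libraries a genotype; limma log2 fold change 2.57, adjusted p = 0.000726). RGS6, which acts on M2 receptor signalling in heart, rose by 2.46 (limma adjusted p = 0.0164), RGS1 rose from 0, 0.762 and 0 to 63.6, 14.5 and 16.9 normalized counts (limma adjusted p = 0.0194), and RGS13 fell by 3.34 (limma adjusted p = 0.0172). RGS1 had 1 read in all wild-type libraries together, under the floor of 3 reads, and entered the test only through its knockout level. Its knockout mean was 10.9 times the mean wild-type value of 3 reads. RGS13, at 7.68 normalized counts on average in the knockout, entered the test only through its wild-type level. Among the Gq effectors, which lie downstream of ADRA1A and ADRA1B, the phospholipase PLCB2 fell (-2.42, limma adjusted p = 0.00312). None of 3 tested G protein-gated potassium channel subunits passed with limma, edgeR or DESeq2, and 0 had an unadjusted p under 0.05; the most abundant was KCNJ5 (-0.31, limma adjusted p = 0.397).

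Of 29 receptor scaffold, endocytosis and recycling genes SLC9A3R1 rose (1.04, limma adjusted p = 0.0195) and MDM2, a ubiquitin ligase that modifies beta-arrestin, fell (-0.86, limma adjusted p = 0.0319). Among genes that handle the transmitters, SLC6A2, the noradrenaline transporter, fell by 2.83 (limma adjusted p = 0.0130). Of 3 tested acetylcholine genes 1 passed: SLC5A7, the choline transporter of cholinergic neurons, rose, with 2.50 ± 3.79 normalized counts against 206 ± 67.2 (± SD, 3 libraries a genotype; limma log2 fold change 6.41, adjusted p = 0.00292), from 10 reads in all wild-type libraries together, while CHAT, which makes acetylcholine, had at most 1 read in any library. With pseudocounts of 10 and 0.1 the log2 fold change of SLC5A7 was 4.10 and 7.96. SLC5A7 entered the test only through its knockout level. The calls of GNAL, GNAO1, GNG2, GNG7, RGS6, RGS13, RGS1, SLC9A3R1, MDM2 and SLC6A2 were each lost in at least 2 of the 6 fits that left out 1 library, wild-type replicate 1 among them in every case. Exons of GNAL, GNAO1, GNG2, PLCB2, SLC9A3R1, MDM2 and CHRM3 overlap those of a gene on the other strand. On their own strand, exons of SLC6A2 overlap those of AC136621.1, ADRB3 those of AC144573.1, MDM2 those of AC025423.2 and SLC9A3R1 those of MIR3615.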

How the data were processed

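RNA was sequenced in 6 libraries, 3 for each genotype. The labels' protocols give column purification with DNase treatment, cDNA synthesis (Clontech Ultra Low v4) and NexteraXT libraries. The submitters' processing notes name bcl2fastq 2.19, kallisto 0.44.0, DESeq2 1.28.1 and GRCh38 without their roles; the annotation and use of strand are not given in the sources used here. The deposited values are a signal that the authors call normalized counts. In every column 100% of the values were whole multiples of the smallest (tolerance 0.01), which gave whole numbers called reads here; if they came from kallisto they are rounded estimates. No molecular identifiers are mentioned, so floors of 3 reads cover counting error only. Chi-square per degree of freedom between replicates was 18.9 or more, so each library counted once. The unused columns numbered 0.

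limma 3.58.1 (R 4.3.3; lmFit, eBayes with a trend) was run on log2(value + 1), which understates changes of low genes, for genes that averaged 10 or more, with no covariate and Benjamini-Hochberg adjustment over all genes tested. Recovered reads went into edgeR 4.0.16 and DESeq2 1.42.0 as alternatives. The tests were first tried on simulated data, with 100 genes changed by 1 log2 unit and 100 by 2. limma recovered 5 and 69 of these with 4 false calls, and edgeR 4 and 65 with 3. DESeq2 recovered 24 and 82 with 50 false calls. Far fewer genes were changed in the simulation than the 1982 that limma called in the data. Fewer changed genes make the adjusted threshold stricter, so these recoveries do not measure the power of the fits to the data. A missing call still does not show that a gene was unchanged. P-values measure the spread between the replicates of 1 line per genotype. Named genes were the 8, STK25, all other adrenergic and muscarinic receptors, GRK2, GRK3 and, per list, called genes, or the most abundant where none was called. Some genes that this rule names, and values that rest on them, are not reported here, while counts over whole lists include them. Members, lists and rules were chosen with earlier results of these data known. Figures were drawn with matplotlib 3.10.9.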

Additional observations from a re-analysis of the deposited data

How the results depend on the processing

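No gene of the group passed the threshold under any alternative but DESeq2, which called 2. Over all genes 1982 passed, with 798 under the replicate block, 3210 with DESeq2 and 4706 without both libraries that stand apart, an alternative added after the data were seen; leaving out 1 library gave 792 (wild-type replicate 1) to 2192 (knockout replicate 1), and of the others 911 for wild-type replicate 3, 963 for knockout replicate 3 and 1270 for knockout replicate 2. Among the listed pathway genes 20 passed, with 9 under the replicate block, 31 with DESeq2, 43 without both libraries that stand apart and from 8 (without wild-type replicate 1) to 21 when 1 library was left out, including 11 for wild-type replicate 3 and 12 for knockout replicate 3. The labels do not say whether same-numbered libraries were handled together. Their deviations from the genotype means had correlations of -0.23, -0.40 and 0.17, which cannot settle this with 3 libraries a genotype. With the replicate block 0 genes of the group passed. Signs turned with equal totals for CHRM2 (-0.028), GRK6 (-0.11), ARRB2 (-0.080) and GRK2 (-0.051), a scaling under which 549 genes were higher and 1457 lower, against 927 and 1055 as deposited. CHRM3 turned to 0.0074 with equal upper quartiles, 0.18 with quantile normalization and 0.051 without both libraries that stand apart; leaving out 1 library gave -0.35 to 0.35, with 0.084 for knockout replicate 1 and 0.065 for knockout replicate 3. GRK3 turned to 0.018 with quantile normalization and spanned -0.27 to 0.13 when 1 library was left out, with 0.0099 for knockout replicate 1. The span was -0.0049 (knockout replicate 2) to 0.46 for GRK6, -0.016 (wild-type replicate 1) to 0.46 for ARRB2 and -0.064 (wild-type replicate 2) to 0.60 for GRK2. The log2 ratio of ADRB1 to CHRM2 turned to -0.15 with a pseudocount of 10 and spanned -0.41 (knockout replicate 3) to 1.08 when 1 library was left out. Leave-one-out spans of 3 further ratios kept their sign: -1.41 to -0.85 for GRK5 to GRK6, -1.45 to -0.79 for GRK5 to GRK2 and -1.01 to -0.12 for ARRB1 to ARRB2. The cause of these shifts was not tested. Depth limits ADRB1 and ADRA1A, which had at most 5 reads in a library.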
